A study of Mus musculus with 9 samples.

Results

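The interleukin-1 family was examined through 10 genes: the ligands Il33, Il1a, Il1b and Il18, the natural inhibitors Il1rn and Il18bp, and the receptor chains Il1rl1, Il1r1, Il1rap and Il18r1. Every probeset whose only annotated gene symbol was one of these was taken, which gave 16 of the 45037 probesets measured and 9 of the 10 genes. Il1rl1, the receptor of IL-33, was the only symbol of no probeset and was not analysed here. The set was chosen by the size of the measured difference between v-Src and STAT3-C cells. This was larger for Il33 than for any other probeset with 1 gene symbol. The levels of Il33 and all differences between the 2 transfected lines are therefore given below as descriptions with no p-value.

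Mouse fibroblasts of 3 lines were compared on Affymetrix mouse genome arrays, with 3 arrays a line. The v-Src cells are Balb/c-3T3 fibroblasts that stably carry pMvSrc, which encodes the oncogenic tyrosine kinase of Rous sarcoma virus. The STAT3-C cells are Balb/c-3T3 fibroblasts that stably carry pRc/CMV-STAT3C, which encodes a constitutively active form of the transcription factor STAT3. The control was the Balb/c-3T3 line itself. All the lines were kept in DMEM with 10% bovine calf serum, and each array was made from RNA of 5 dishes pooled at 1 of 3 passages. Each condition is thus 1 stable line, so that the p-values below reflect how much passages of a line vary, while independent clones were not compared. Arrays carry the numbers 1, 5 and 6 for v-Src cells, 1, 2 and 3 for STAT3-C cells and 1, 2 and 3 for control cells. With 3 arrays against 3, an exact permutation test of a single gene could not go below p = 0.1, so the tests are those of limma fitted across all probesets.

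Cytokines of the interleukin-1 family are alarm signals of injury and infection. IL-1α and IL-1β share a receptor chain, and IL-18 and IL-33 each bind another, which then recruits an accessory chain, and the joined intracellular domains pass the signal through MyD88 and IRAK kinases to NF-κB and MAP kinases. IL-1β and IL-18 are made as inactive precursors that caspase-1 cleaves, whereas IL-33 resides in the nucleus of epithelial, endothelial and fibroblastic cells and is released when they are damaged. Fibroblasts are classical responders to IL-1, which makes them secrete chemokines, prostaglandins and matrix metalloproteases.

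Values are Robust Multichip Average (RMA) expression on the log2 scale, in which a difference of 1 is a 2-fold difference. Array medians ran from 6.27 to 6.39 and lower quartiles from 5.07 to 5.16. Arrays of 1 line correlated with r between 0.99 and 0.995. Differences that start or end near the lower quartile are limited by background, and levels of different probesets are not compared with each other. A probeset passed the test when its Benjamini-Hochberg adjusted p over all 45037 probesets was under 0.05 and its fold at least 1.5, and only such probesets are said to have risen or fallen. In RNA from whole cultures, fewer cells making a transcript and less of it per cell cannot be told apart. Of 15 fibroblast markers, each on its brightest probeset, 2 rose and 7 fell in v-Src cells, where 9.54% of all genes rose and 10.4% fell. In STAT3-C cells 1 of the 15 rose and 8 fell, where 11.9% of all genes rose and 10.3% fell. Vim and Col1a2 stayed at or above percentile 99.4 of their array on all 9 arrays. Col1a2 nevertheless fell in STAT3-C cells (difference -0.61, adjusted p = 0.00104 in limma). Its dimmer probesets 1423110_at and 1446326_at fell in v-Src cells and did not pass in STAT3-C cells. Thy1, a surface glycoprotein of fibroblasts, averaged 5.68 in v-Src cells and 5.67 in STAT3-C cells, against 10.86 in control cells. It ranked between percentiles 33.5 and 38.7 of its array in v-Src cells and between 34.0 and 38.9 in STAT3-C cells, above the lower quartile. Among the other markers, Postn averaged 6.4 in v-Src cells and 6.05 in STAT3-C cells, against 12.3 in control cells. Lum averaged 5.14 in v-Src cells and 4.79 in STAT3-C cells, against 8.3 in control cells. The markers that rose were S100a4 and Fn1. S100a4 rose by 0.65 in v-Src cells (adjusted p = 0.019 in limma) and by 0.89 in STAT3-C cells (adjusted p = 0.0033). Fn1 rose by 1.13 in v-Src cells (adjusted p = 0.000332) and did not pass in STAT3-C cells. Of the 2 transfected genes, Stat3 rose on 2 of its 4 probesets in v-Src cells (1426587_a_at by 1.53 and 1460700_at by 1.30) and on 1 in STAT3-C cells (1460700_at by 0.72), and neither Src probeset passed, though these probesets are for mouse Src and do not check the viral gene.

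Among the 3 lines, Il33 stood at a high level in v-Src cells alone. Its single probeset, 1416200_at, read 12.04, 10.04 and 12.21 in v-Src arrays 1, 5 and 6, against 5.39, 5.30 and 4.77 in STAT3-C arrays 1, 2 and 3, and 4.30, 5.58 and 5.13 in control arrays 1, 2 and 3. The v-Src arrays stood clear of the other 6, while the STAT3-C and control arrays overlapped. The lowest v-Src array exceeded the highest of the other 6 by 4.45, which is a 21.9-fold gap. Within its array, Il33 ranked between percentiles 93.44 and 99.06 in v-Src cells and between 11.01 and 34.06 in the other cells.

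The mean of Il33 was 11.43 ± 1.21 in v-Src cells, 5.15 ± 0.33 in STAT3-C cells and 5.0 ± 0.65 in control cells (SD, n = 3 each). The difference of v-Src from STAT3-C cells was 6.28 with a standard error of 0.54, or 77.5-fold, and that from control cells was 6.43 with a standard error of 0.60, or 86.0-fold. STAT3-C cells differed from control cells by 0.15 with a standard error of 0.31, and this sign turned to -0.20 without control array 1. In order of size among probesets with 1 gene symbol, Il33 had rank 1 between v-Src and STAT3-C cells. The genes that followed were Cxcl5 with -5.73, Scara5 with -5.21 and Afp with -5.10. Against control cells Il33 had rank 5 from the top of all probesets in v-Src cells and rank 14624 in STAT3-C cells. Because Il33 lay near the lower quartile in STAT3-C and control cells, the size of the differences from them is limited by background.

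Il33 also varied within the v-Src line, over a range of 2.17 or 4.5-fold. Array 5 lay 2.09 below the mean of v-Src arrays 1 and 6, and only 4 of 45037 probesets lay further below on that array. Without it, the difference of v-Src cells was 7.12 from control cells and 6.97 from STAT3-C cells. This array was the lowest of its line at 9 of the 16 family probesets, or 56.2%, against 29.9% of all probesets. STAT3-C array 3 was likewise the lowest of its line at 9 of 16, against 30.5% of all probesets. What set these passages apart was not tested.

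**Figure D1:**
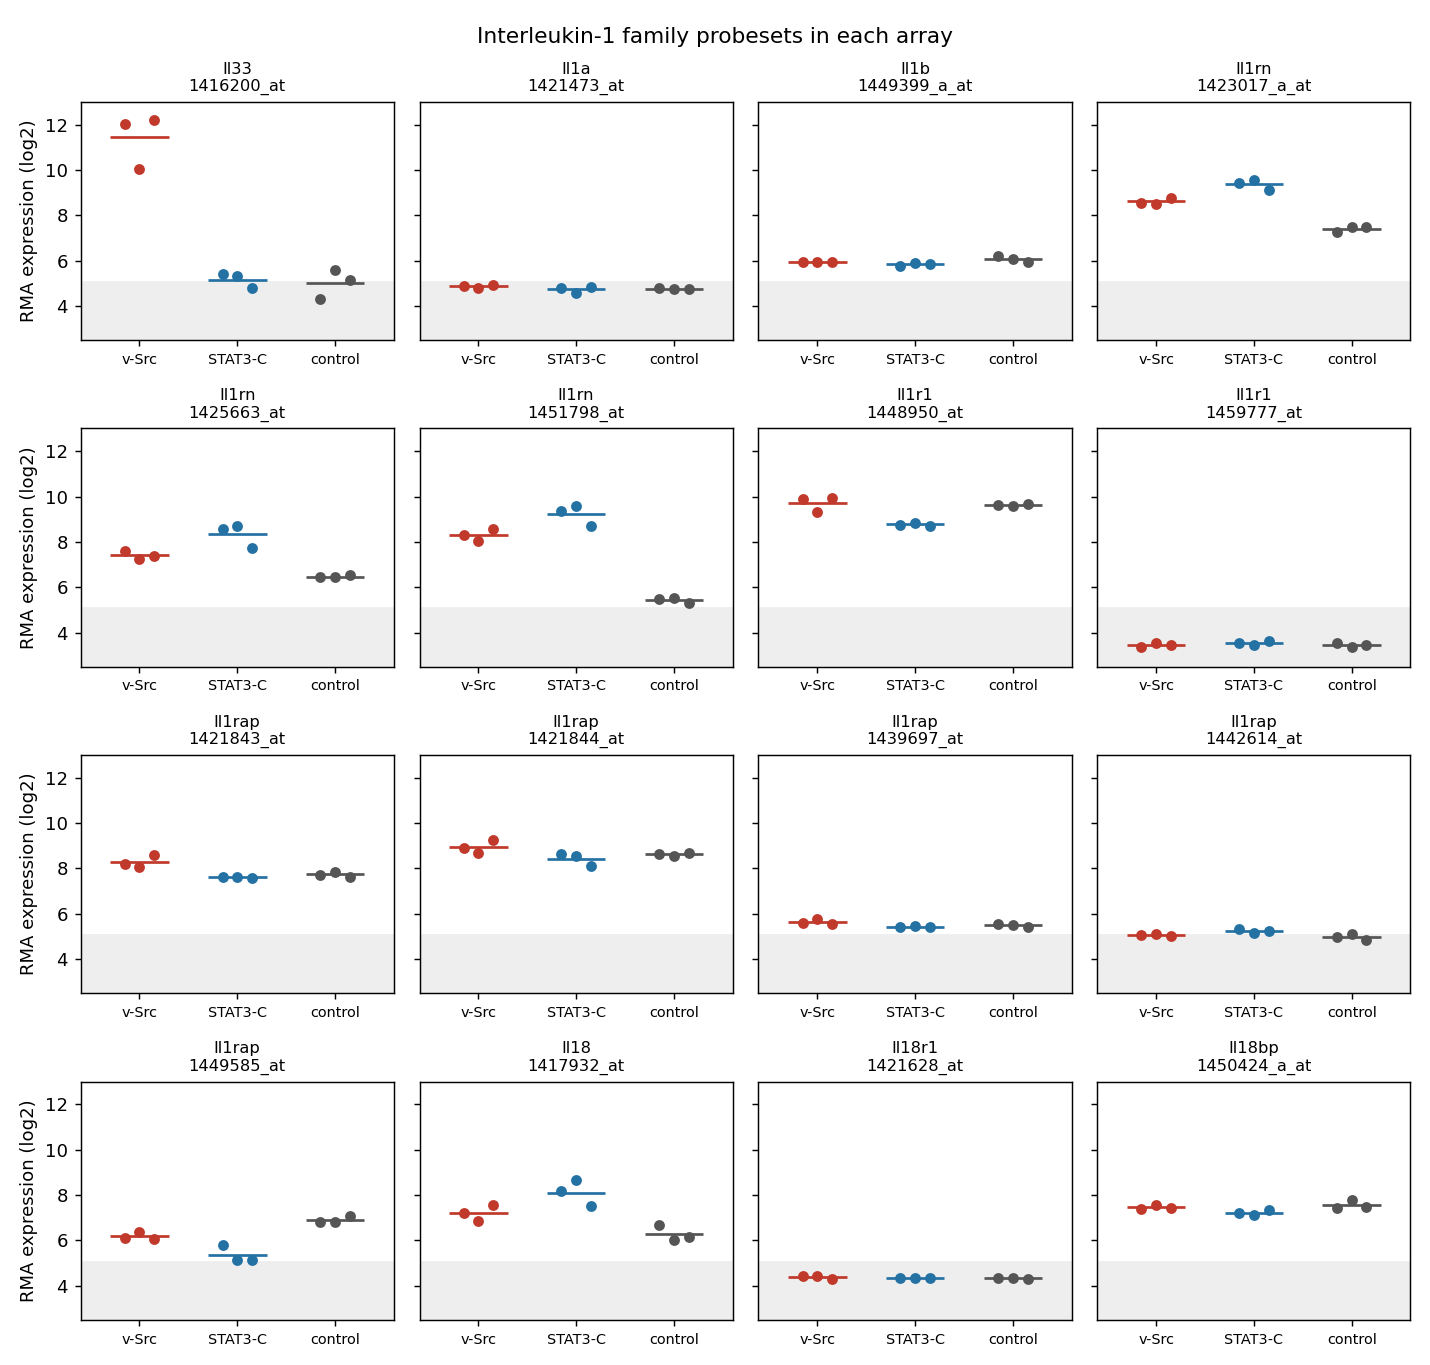
RMA expression (log2, vertical axis) of the 16 interleukin-1 family probesets in each array, with 1 point an array, a bar at the mean of each line (v-Src, STAT3-C, control, n = 3 each) and grey below the lower quartile of an array. Il33 lies between 10.04 and 12.21 in v-Src arrays and between 4.30 and 5.58 in the other 6, and the 3 Il1rn probesets are above control in every array of both transfected lines.

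The promoters of the members that differed most are shown so that the measurements can be set beside the sequence around their start sites. They are RefSeq windows of mouse build GRCm38.p6 from 250 bases before to 50 bases after an annotated start, and all 10 genes were matched, with 17 windows. The windows were searched on both strands for the STAT element TTCNNNGAA, the AP-1 element TGANTCA and the NF-κB consensus, and matches would appear in capitals. The study defined STAT3 sites by a looser pattern, which was not searched. Of 32851 mouse windows of the same length, 8.3% held the STAT element, 7.81% the AP-1 element and 4.51% the NF-κB consensus. Both annotated starts of Il33, on chromosome 19, held none of these letters:
Il33 promoter window 1, chr19:29924863-29925162, + strand: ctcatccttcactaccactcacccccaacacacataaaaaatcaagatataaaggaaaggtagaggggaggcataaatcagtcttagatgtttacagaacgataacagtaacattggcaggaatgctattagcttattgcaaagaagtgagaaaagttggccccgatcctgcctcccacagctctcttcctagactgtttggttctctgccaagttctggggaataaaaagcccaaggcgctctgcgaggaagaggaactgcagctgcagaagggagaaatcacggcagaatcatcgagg
Il33 promoter window 2, chr19:29945540-29945839, + strand: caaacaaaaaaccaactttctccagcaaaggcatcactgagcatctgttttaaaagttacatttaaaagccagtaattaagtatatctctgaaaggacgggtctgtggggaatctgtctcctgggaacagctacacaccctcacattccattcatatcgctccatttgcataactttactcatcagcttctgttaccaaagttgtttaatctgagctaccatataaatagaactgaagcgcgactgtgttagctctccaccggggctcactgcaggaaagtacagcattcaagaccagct

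The other ligands of IL-1 receptors were not among the genes that moved. Il1a, which encodes the membrane-bound and nuclear IL-1α, read 4.88, 4.78 and 4.92 in v-Src cells, 4.78, 4.57 and 4.84 in STAT3-C cells and 4.78, 4.75 and 4.75 in control cells. All 9 of these values lay below the lower quartile of an array, and the lines overlapped. The difference from control cells was 0.10 in v-Src cells (95% interval -0.07 to 0.27, adjusted p = 0.351 in limma) and -0.03 in STAT3-C cells (-0.26 to 0.20, adjusted p = 0.86).

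Il1b encodes the secreted IL-1β of inflammasome-activated cells. It read 5.94 in all 3 v-Src arrays and 5.78, 5.90 and 5.84 in STAT3-C arrays, against 6.22, 6.09 and 5.94 in control arrays. Control arrays 1 and 2 were higher than every transfected array, and control array 3 was level with the v-Src arrays. Neither difference passed, with -0.15 in v-Src cells (-0.35 to 0.06, adjusted p = 0.272) and -0.24 in STAT3-C cells (-0.48 to -0.01, adjusted p = 0.113).

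Il18, the precursor of the interferon-γ-inducing cytokine IL-18, rose in both transfected lines. Probeset 1417932_at read 7.21, 6.85 and 7.57 in v-Src arrays 1, 5 and 6 and 8.18, 8.66 and 7.50 in STAT3-C arrays 1, 2 and 3, against 6.69, 6.04 and 6.14 in control arrays. Every array of both transfected lines was above every control array, while v-Src and STAT3-C arrays overlapped. Il18 rose by 0.92 in v-Src cells (SE 0.23, 1.89-fold, adjusted p = 0.0214 in limma) and by 1.82 in STAT3-C cells (SE 0.29, 3.53-fold, adjusted p = 0.00208). The rise in v-Src cells did not pass without v-Src array 1 (0.91, adjusted p = 0.0706), v-Src array 6 (0.74, adjusted p = 0.0662), control array 2 (0.79, adjusted p = 0.0668) or control array 3 (0.84, adjusted p = 0.0793). It kept its pass without v-Src array 5 (1.10) and without control array 1 (1.12). Directly, v-Src cells lay 0.90 below STAT3-C cells (difference -0.90, SE 0.30). The promoter window of Il18, on chromosome 9, is shown because it rose in both lines, and no match was found in it:
Il18 promoter window 1, chr9:50554450-50554749, + strand: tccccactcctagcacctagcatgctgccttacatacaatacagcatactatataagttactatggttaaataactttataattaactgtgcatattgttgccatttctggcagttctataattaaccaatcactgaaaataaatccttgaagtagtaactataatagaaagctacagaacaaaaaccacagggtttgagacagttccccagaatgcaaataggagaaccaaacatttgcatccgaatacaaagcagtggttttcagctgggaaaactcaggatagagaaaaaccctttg

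Among the inhibitors, Il1rn rose in both transfected lines and on each of its 3 probesets. Il1rn encodes the IL-1 receptor antagonist, which occupies the IL-1 receptor without signaling. Probeset 1451798_at read 8.30, 8.02 and 8.57 in v-Src arrays 1, 5 and 6 and 9.36, 9.59 and 8.72 in STAT3-C arrays 1, 2 and 3, against 5.49, 5.54 and 5.29 in control arrays. The lines did not overlap, with control lowest and STAT3-C highest. The gain was 2.86 in v-Src cells (SE 0.15, 7.25-fold, adjusted p = 2.81e-05 in limma) and 3.78 in STAT3-C cells (SE 0.21, 13.8-fold, adjusted p = 1.16e-05).

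Probeset 1423017_a_at read 8.55, 8.51 and 8.77 in v-Src arrays and 9.44, 9.54 and 9.13 in STAT3-C arrays, against 7.24, 7.48 and 7.47 in control arrays. Probeset 1425663_at read 7.59, 7.24 and 7.37 in v-Src arrays and 8.58, 8.72 and 7.72 in STAT3-C arrays, against 6.43, 6.44 and 6.52 in control arrays. Both kept the same order of the lines without overlap, and on 1425663_at STAT3-C array 3 came within 0.12 of the v-Src arrays. On 1423017_a_at the gain was 1.22 in v-Src cells (SE 0.10, adjusted p = 0.000232) and 1.97 in STAT3-C cells (SE 0.13, adjusted p = 2.66e-05). On 1425663_at it was 0.94 in v-Src cells (SE 0.10, adjusted p = 0.000651) and 1.88 in STAT3-C cells (SE 0.24, adjusted p = 0.000641). The probesets thus differed in the size of the gain, from 0.94 to 2.86 in v-Src cells and from 1.88 to 3.78 in STAT3-C cells, and which transcripts each detects was not tested. Probesets 1425663_at and 1451798_at are annotated to 1 sequence, so they do not count as separate evidence. Set directly against STAT3-C cells, v-Src cells had differences of -0.76 (SE 0.13), -0.94 (SE 0.25) and -0.93 (SE 0.23) on 1423017_a_at, 1425663_at and 1451798_at.

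RefSeq places starts of Il1rn on chromosome 2 in 3 windows, the last of which overlaps the second. The first 2 are shown because Il1rn is the member that rose most in both lines, with the AP-1 element in capitals:
Il1rn promoter window 1, chr2:24336610-24336909, + strand: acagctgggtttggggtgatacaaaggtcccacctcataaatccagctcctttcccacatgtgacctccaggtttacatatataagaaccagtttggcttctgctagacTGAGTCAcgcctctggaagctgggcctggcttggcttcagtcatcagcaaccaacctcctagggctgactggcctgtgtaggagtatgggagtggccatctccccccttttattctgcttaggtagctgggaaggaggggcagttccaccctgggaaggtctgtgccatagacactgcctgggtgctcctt
Il1rn promoter window 2, chr2:24345041-24345340, + strand: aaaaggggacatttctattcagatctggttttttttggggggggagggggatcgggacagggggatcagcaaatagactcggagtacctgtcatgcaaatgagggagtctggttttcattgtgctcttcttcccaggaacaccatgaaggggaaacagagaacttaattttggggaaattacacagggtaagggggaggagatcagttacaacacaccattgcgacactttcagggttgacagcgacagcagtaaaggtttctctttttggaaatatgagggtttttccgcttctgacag

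The element TGAGTCA of the first window began at position -141 from the start, and the second held no match. Elsewhere in the family, the AP-1 element TGACTCA stood at position -12 of the Il1a window, 1 of the 2 Il1r1 windows held an NF-κB match at position -232, and 1 of the 3 Il18r1 windows held the STAT element at positions -219 and -152. No 2 matches overlapped. These matches describe the letters of the windows and not bound sites. Of the 4 genes with a match, Il1rn rose in both lines, Il1r1 fell in STAT3-C cells, and Il1a and Il18r1 passed in neither line.

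Il18bp, the soluble decoy that binds IL-18, read 7.38, 7.58 and 7.43 in v-Src arrays and 7.21, 7.13 and 7.34 in STAT3-C arrays, against 7.43, 7.77 and 7.48 in control arrays. STAT3-C arrays were all below the control arrays by a small gap of 0.09, and v-Src arrays overlapped with them. The difference was -0.10 in v-Src cells (-0.36 to 0.17, adjusted p = 0.559) and -0.33 in STAT3-C cells (-0.60 to -0.06, adjusted p = 0.0683). Il18 thus passed in both lines and its decoy in neither.

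Of the receptor chains, Il1r1 fell in STAT3-C cells. Il1r1 encodes the signaling receptor of IL-1α and IL-1β, which Il1rn also binds. Probeset 1448950_at read 9.88, 9.33 and 9.94 in v-Src arrays 1, 5 and 6 and 8.75, 8.84 and 8.72 in STAT3-C arrays, against 9.62, 9.59 and 9.68 in control arrays. All STAT3-C arrays were below all others, and v-Src arrays lay on both sides of control. Il1r1 fell by 0.86 in STAT3-C cells (SE 0.09, adjusted p = 0.000217 in limma), where it was 1.81-fold lower than in control cells. In v-Src cells the difference was 0.08 (-0.30 to 0.46, adjusted p = 0.738). Directly, v-Src cells were 0.94 (SE 0.16) above STAT3-C cells. The second Il1r1 probeset, 1459777_at, lay between 3.37 and 3.63 on all arrays, below the lower quartile, and did not pass in either line.

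Il1rap encodes the accessory chain shared by the receptors of IL-1 and IL-33, and its 5 probesets did not move as one. Probeset 1449585_at, which is annotated to a RefSeq transcript of the gene, read 6.11, 6.37 and 6.05 in v-Src arrays and 5.81, 5.12 and 5.16 in STAT3-C arrays, against 6.80, 6.80 and 7.09 in control arrays. The lines did not overlap, with STAT3-C lowest and control highest. It fell by 0.72 in v-Src cells (SE 0.12, 1.65-fold lower, adjusted p = 0.00429 in limma) and fell by 1.53 in STAT3-C cells (SE 0.19, 2.89-fold lower, adjusted p = 0.000573). In STAT3-C cells this probeset ended near the lower quartile, so the size there is limited by background.

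Probeset 1421843_at of Il1rap read 8.19, 8.06 and 8.58 in v-Src arrays and 7.62, 7.62 and 7.57 in STAT3-C arrays, against 7.73, 7.85 and 7.63 in control arrays. The v-Src arrays were above all others, and STAT3-C and control arrays nearly met. The difference in v-Src cells was 0.54 (SE 0.14, adjusted p = 0.0274), under the fold of 1.5, and it reached that fold without v-Src array 5 (0.65, adjusted p = 0.0211) or control array 2 (0.60, adjusted p = 0.0438). In STAT3-C cells it was -0.13 (-0.34 to 0.09, adjusted p = 0.353).

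Probeset 1421844_at of Il1rap read 8.92, 8.69 and 9.27 in v-Src arrays and 8.63, 8.55 and 8.12 in STAT3-C arrays, against 8.65, 8.57 and 8.70 in control arrays. The order of the means was that of 1421843_at, with overlap of each transfected line with control, and the differences were 0.32 in v-Src cells (-0.02 to 0.66, adjusted p = 0.15) and -0.21 in STAT3-C cells (-0.53 to 0.12, adjusted p = 0.321). Both probesets are annotated to 1 sequence, so they do not count as separate evidence. The remaining 2 Il1rap probesets, 1439697_at and 1442614_at, stayed between 4.83 and 5.76 on all arrays and did not pass in either line. Whether the 5 probesets detect different forms of the transcript was not tested.

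Il18r1, the ligand-binding receptor chain of IL-18, was at background in all lines. It read 4.44, 4.44 and 4.31 in v-Src arrays and 4.35 in each STAT3-C array, against 4.35, 4.35 and 4.32 in control arrays. All 9 values lay below the lower quartile, and the lines overlapped. Its difference was 0.05 in v-Src cells (-0.12 to 0.23, adjusted p = 0.616) and 0.01 in STAT3-C cells (-0.17 to 0.20, adjusted p = 0.935).

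**Figure D2:**
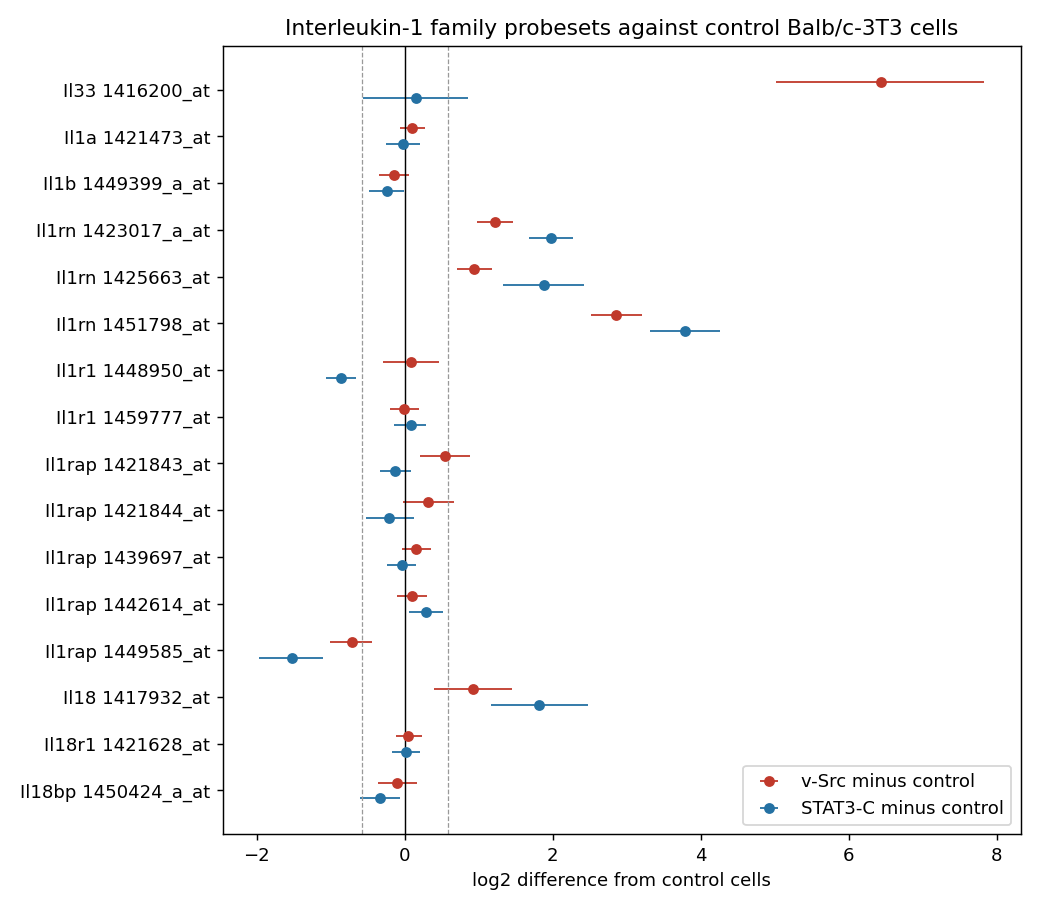
Log2 difference from control cells (horizontal axis) of each interleukin-1 family probeset in v-Src and STAT3-C cells, as points with 95% intervals from limma (n = 3 arrays a line) and dashed lines at a fold of 1.5. The 3 Il1rn probesets and Il18 lie to the right in both lines and Il1rap 1449585_at to the left, Il33 stands at 6.43 in v-Src and 0.15 in STAT3-C cells, and Il1r1 1448950_at at -0.86 in STAT3-C cells.

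Counted without Il33, 4 of the 15 remaining probesets rose and 1 fell in v-Src cells, where 8.75% of all probesets rose and 8.1% fell. In STAT3-C cells 4 of 15 rose and 2 fell, where 9.68% of all probesets rose and 8.58% fell. In both lines 3 of the 4 that rose belong to the single gene Il1rn and the other to Il18, and those that fell belong to Il1rap in both lines and to Il1r1 in STAT3-C cells. The median difference of the 15 was 0.10 in v-Src cells and -0.03 in STAT3-C cells, against 0.03 in v-Src cells and 0.02 in STAT3-C cells over all probesets. Between v-Src and STAT3-C cells, the contrast that chose the set, 3 of 15 met the same criteria upwards and 3 downwards, where 4.99% of all probesets did so upwards and 5.33% downwards. Without single arrays these counts were 1 to 2 upwards and 1 to 4 downwards, and nothing is read from them. The comparisons with control share the 3 control arrays.

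Other members of the family were measured with 1 probeset a gene, the brightest. At this level 9.54% of 18193 genes rose and 10.4% fell in v-Src cells, with a median of 0.02, and 11.9% rose and 10.3% fell in STAT3-C cells, with a median of 0.04. Of 11 further ligands and receptors, 3 rose and none fell in v-Src cells (median 0.24), and 2 rose and none fell in STAT3-C cells (median 0.21). Il18rap, the accessory chain that completes the IL-18 receptor, averaged 8.89 in v-Src cells and 8.70 in STAT3-C cells, against 7.36 in control cells, and rose by 1.53 in v-Src cells (SE 0.19, adjusted p = 0.000998) and by 1.33 in STAT3-C cells (SE 0.11, adjusted p = 6.75e-05). Its second probeset passed in both lines too. Il18rap thus rose where its partner Il18r1 was below the lower quartile on every array.

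Sigirr, an orphan receptor that dampens IL-1 receptor and Toll-like receptor signaling, averaged 8.30 in v-Src cells and 8.55 in STAT3-C cells, against 6.82 in control cells. It rose by 1.48 in v-Src cells (SE 0.09, adjusted p = 4.74e-05) and by 1.73 in STAT3-C cells (SE 0.11, adjusted p = 2.58e-05). Il1f9, a ligand now named IL-36γ, averaged 7.08 in v-Src cells, 6.52 in STAT3-C cells and 6.30 in control cells, and its rise of 0.78 in v-Src cells passed (SE 0.15, adjusted p = 0.00864), while the difference in STAT3-C cells was 0.23 (SE 0.11, adjusted p = 0.148). The decoy receptor Il1r2 averaged 5.35 in v-Src cells, 5.20 in STAT3-C cells and 5.45 in control cells and did not pass.

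Of 14 genes for the maturation of IL-1β and IL-18, 12 were measured, of which 3 rose and 1 fell in v-Src cells (median 0.21) and 2 rose and 2 fell in STAT3-C cells (median 0.21). Casp1, the protease that cleaves both precursors, averaged 6.33 in v-Src cells, 4.82 in STAT3-C cells and 4.49 in control cells. It rose by 1.84 in v-Src cells (SE 0.16, adjusted p = 0.000246), and in STAT3-C cells its difference was 0.33 (SE 0.13, adjusted p = 0.0988). Casp4, the caspase that senses intracellular lipopolysaccharide, rose by 1.55 in v-Src cells (SE 0.14, adjusted p = 0.000286) and by 0.89 in STAT3-C cells (SE 0.16, adjusted p = 0.00435). The DNA sensor Aim2 rose by 0.64 in v-Src cells (adjusted p = 0.00149) and by 0.94 in STAT3-C cells (adjusted p = 0.000333). Calpains cleave the precursor of IL-1α, and of their catalytic subunits Capn2 fell by 1.11 in v-Src cells (adjusted p = 0.00174) and fell by 1.21 in STAT3-C cells (adjusted p = 0.000263), while Capn1 fell by 1.35 in STAT3-C cells (adjusted p = 5.88e-05) and differed by -0.29 in v-Src cells (adjusted p = 0.0622). The sensor Nlrp3 and the adapter Pycard did not pass in either line.

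Of 24 signaling genes downstream of the receptors, 22 were measured, of which 4 rose and 6 fell in v-Src cells (median -0.05) and 1 rose and 5 fell in STAT3-C cells (median -0.16). The adapter Myd88 averaged 9.05 in v-Src cells, 8.73 in STAT3-C cells and 9.01 in control cells and did not pass. Ecsit, a TRAF6-binding signaling protein, rose by 0.94 in v-Src cells (adjusted p = 0.000438) and by 0.91 in STAT3-C cells (adjusted p = 0.000374). Ube2n, the ubiquitin-conjugating enzyme that works with TRAF6, fell by 1.29 in v-Src cells (adjusted p = 0.000732) and fell by 0.94 in STAT3-C cells (adjusted p = 0.0019). Irak3, an inactive IRAK that restrains signaling, fell by 0.85 in v-Src cells (adjusted p = 0.000635) and fell by 0.77 in STAT3-C cells (adjusted p = 0.0022).

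For further signaling genes the values of both lines are given, and the difference between the lines was not tested. Map3k3, a MAP kinase kinase kinase, fell by 1.05 in v-Src cells (adjusted p = 0.000116) and differed by -0.11 in STAT3-C cells (adjusted p = 0.396), where another of its probesets, 1426687_at, fell by 0.85 (adjusted p = 0.00241). Tab2, an adapter of TAK1, fell by 0.70 in v-Src cells (adjusted p = 0.00309) and differed by -0.50 in STAT3-C cells (adjusted p = 0.00774), under the fold of 1.5, while its other probeset, 1451003_at, fell by 0.95 there (adjusted p = 0.00152). Irak2, an IRAK of the receptor complex, fell by 0.99 in STAT3-C cells (adjusted p = 0.00926) and differed by -0.13 in v-Src cells (adjusted p = 0.715). Peli1, an E3 ligase of the same complex, fell by 0.60 in v-Src cells (adjusted p = 0.0215) on 2 of its 5 probesets and fell by 0.96 in STAT3-C cells (adjusted p = 0.00057) on 1 of 5. The kinases Map3k7 and Map3k8 and the adapter Tab1 rose in v-Src cells by 0.66, 0.65 and 0.63, though Map3k7 did so on 1 of 6 probesets and Tab1 on 1 of 2. In STAT3-C cells the differences were -0.04 for Map3k7 (adjusted p = 0.871), 0.58 for Map3k8 (adjusted p = 0.0819) and 0.36 for Tab1 (adjusted p = 0.0409, under the fold). Another Map3k7 probeset, 1455441_at, fell by 0.63 in STAT3-C cells (adjusted p = 0.00875). In v-Src cells that probeset differed by -0.5 (adjusted p = 0.0486), under the fold.

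Of 34 genes that IL-1 is known to induce, 33 were measured, of which 7 rose and 12 fell in v-Src cells (median -0.12) and 7 rose and 13 fell in STAT3-C cells (median -0.14). Differences in this list ran from -6.94 to 2.32 in v-Src cells and from -6.80 to 1.56 in STAT3-C cells. Mmp3, or stromelysin-1, averaged 5.03 in v-Src cells and 4.99 in STAT3-C cells, against 11.79 in control cells, and fell by 6.75 in v-Src cells (adjusted p = 1.89e-05) and fell by 6.80 in STAT3-C cells (adjusted p = 4.51e-06). Mmp13, a collagenase, fell by 3.87 in v-Src cells (adjusted p = 0.000249) and fell by 4.07 in STAT3-C cells (adjusted p = 6.38e-05). The chemokine Ccl7, which attracts monocytes, fell by 4.10 in v-Src cells (adjusted p = 1.89e-05) and fell by 2.61 in STAT3-C cells (adjusted p = 5e-05).

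Cxcl5, a chemokine for neutrophils, averaged 5.41 in v-Src cells and 11.14 in STAT3-C cells, against 12.34 in control cells, and fell by 6.94 in v-Src cells (SE 0.43, adjusted p = 5.84e-05) and fell by 1.20 in STAT3-C cells (SE 0.29, adjusted p = 0.0144). It was therefore low on the arrays on which Il33 was high. Il33 and Cxcl5 head the order of size between v-Src and STAT3-C cells with opposite signs, so no relation between them is read from this. Vcam1, an adhesion molecule for leukocytes, fell by 3.28 in v-Src cells (adjusted p = 5.77e-05) and fell by 3.16 in STAT3-C cells (adjusted p = 4.51e-06).

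Response genes that rose included Lcn2, an iron-sequestering secreted protein, by 2.32 in v-Src cells (adjusted p = 0.00812) and 1.56 in STAT3-C cells (adjusted p = 0.0477). Sod2, the mitochondrial superoxide dismutase, rose by 1.37 in v-Src cells (adjusted p = 4.63e-05) and by 1.18 in STAT3-C cells (adjusted p = 0.0003). The neutrophil chemokine Cxcl1 rose by 0.85 in both v-Src cells (adjusted p = 0.000285) and STAT3-C cells (adjusted p = 0.00042), on 2 of its 3 probesets in v-Src cells and on 1 in STAT3-C cells. Ptges, the inducible prostaglandin E synthase, rose by 2.06 in v-Src cells on 1449450_at (SE 0.15, adjusted p = 0.000117), with all 3 of its probesets passing, and differed by 0.27 in STAT3-C cells (adjusted p = 0.145). Its probeset 1439747_at fell by 0.62 in STAT3-C cells (adjusted p = 0.0314). Lif, a cytokine of the IL-6 family, rose by 1.25 in v-Src cells (adjusted p = 0.000752) and by 0.65 in STAT3-C cells (adjusted p = 0.00202), in each line on 1 of its 2 probesets. Mmp9, a gelatinase, rose by 0.93 in v-Src cells (adjusted p = 0.00972) and by 0.76 in STAT3-C cells (adjusted p = 0.00436). Il6 and Ptgs2, both classical IL-1 targets, did not pass in either line.

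**Figure D3:**
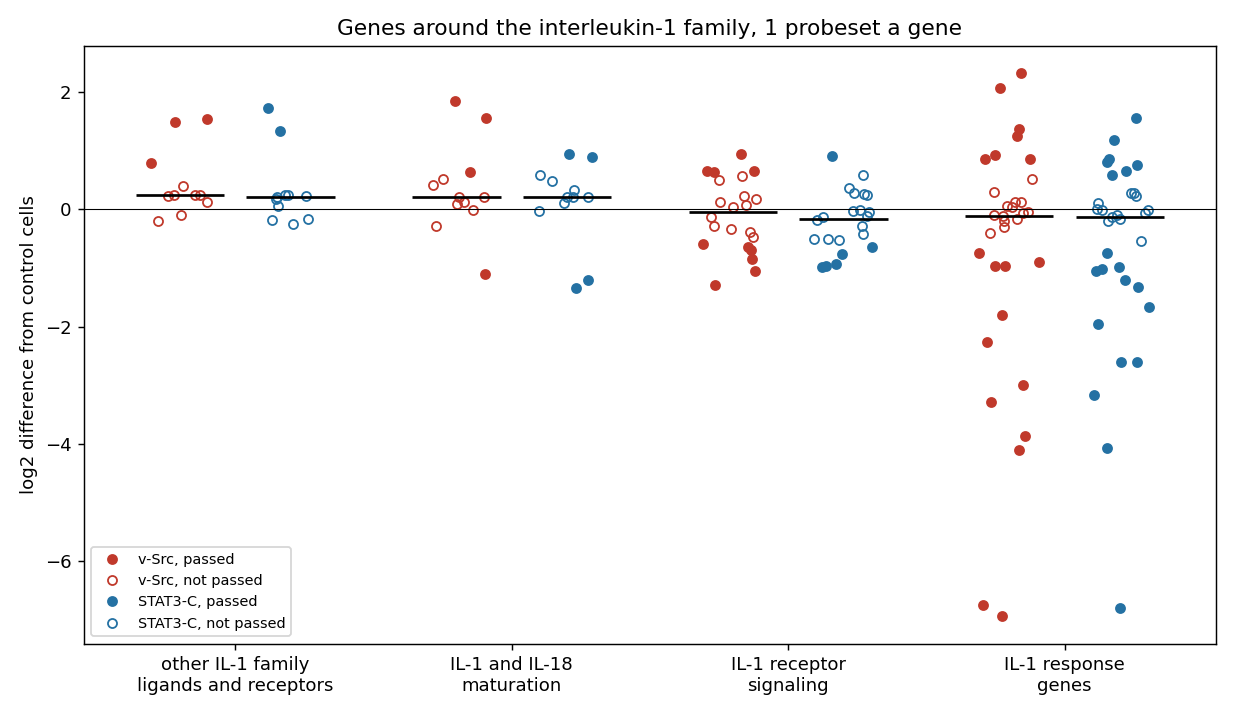
Log2 difference from control cells (vertical axis) of the 78 measured genes of 4 lists around the interleukin-1 family, 1 probeset a gene, with filled points for genes that passed, open points for the rest and black bars at the median of each list. Over the 4 lists 17 genes rose and 19 fell in v-Src cells, and 12 rose and 20 fell in STAT3-C cells, and the lowest points are Mmp3 in both lines and Cxcl5 in v-Src cells.

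Macrophages and mast cells respond to IL-1 family cytokines and express many of the same genes, and markers of these cells were examined. Of 17 such markers, 3 rose in v-Src cells and 4 in STAT3-C cells, and none fell. Among all genes, 9.54% rose and 10.4% fell in v-Src cells, and 11.9% rose and 10.3% fell in STAT3-C cells. Cd14, a co-receptor for lipopolysaccharide, averaged 10.26 in v-Src cells and 10.25 in STAT3-C cells, against 8.13 in control cells. The lysozyme gene Lyz2 averaged 7.82 in v-Src cells and 8.91 in STAT3-C cells, against 6.96 in control cells. The tryptase Tpsab1 rose in both lines, and Cd68 in STAT3-C cells. The sum of the 17 on the linear scale was 2390 to 2800 in v-Src arrays and 2510 to 3190 in STAT3-C arrays, against 1380 to 1520 in control arrays. This sum is weighted to the brightest markers, and Cd14 had the highest mean of the 17 in each line. The median log2 difference of the 17 from control cells was 0.02 in both v-Src and STAT3-C cells. The leukocyte genes Ptprc, Itgam and Aif1 were at or below percentile 19.1 of every array, whereas Csf1r was at or above percentile 64.6. Of the 17 markers, 5 were above the array median in v-Src cells, 7 in STAT3-C cells and 5 in control cells. The part of these markers in the differences of the lists was not tested. On the brightest probeset of each gene, none of 8 lymphocyte, 10 endothelial or 10 epithelial markers measured passed against control cells. Another probeset of the epithelial marker Krt14, 1423935_x_at, rose by 0.83 in STAT3-C cells (adjusted p = 0.00197 in limma).

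The genes with the pattern most like that of Il33 were taken as the 5 with the highest Pearson correlation over the 9 arrays, among 1028 probesets whose line means spanned at least 2. The 9 arrays are 3 clusters of 3, so the coefficients describe these arrays and carry no test. They were Col18a1, the collagen that yields endostatin (r = 0.993), Stc1, the secreted stanniocalcin-1 (r = 0.993), Dock10 (r = 0.993), Cd53, a leukocyte tetraspanin (r = 0.992), and Ptges on 1449449_at (r = 0.992). Dock10 read 8.57, 7.70 and 8.92 in v-Src arrays 1, 5 and 6, against 3.77, 3.97 and 3.70 in STAT3-C arrays and 3.62, 3.72 and 3.59 in control arrays. Cd53 read 9.26, 8.20 and 9.30 in v-Src arrays, against 6.32, 5.90 and 5.97 in STAT3-C arrays and 6.14, 6.37 and 6.14 in control arrays. That they were high in v-Src arrays and lowest there in array 5 follows from this choice. By Spearman correlation, 2 of the 5, Cd53 and Dock10, kept their place among the closest 5.

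**Figure D4:**
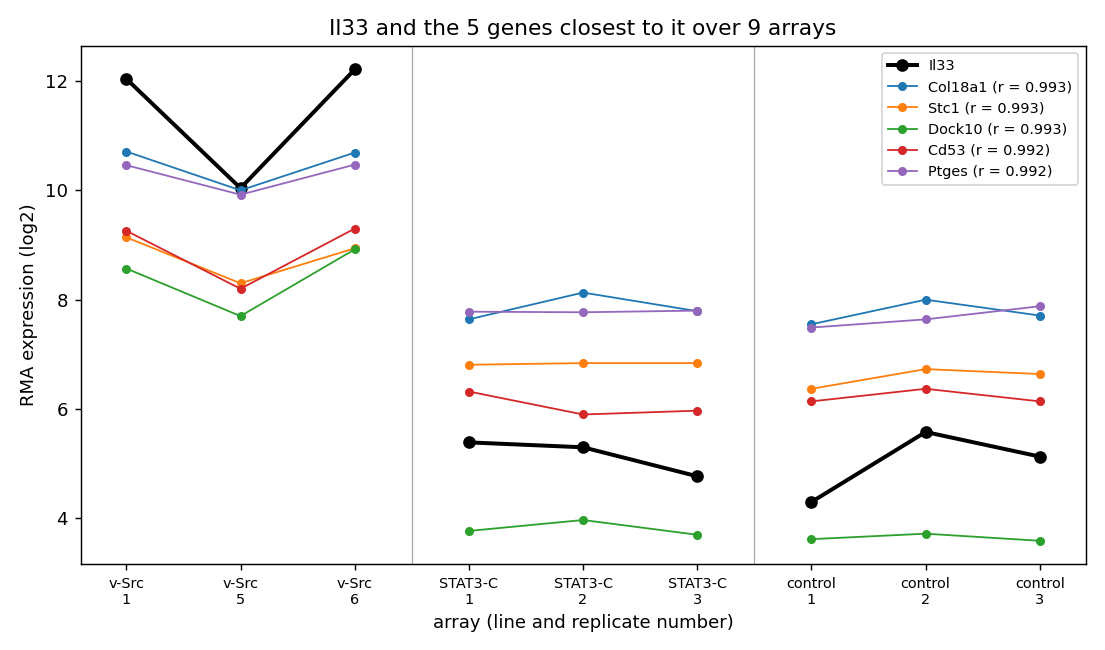
RMA expression (log2, vertical axis) of Il33 and the 5 genes with the closest pattern in each of the 9 arrays (horizontal axis, by line and replicate number), with lines joining the arrays of 1 line. All 6 are high in the 3 v-Src arrays, with a dip in array 5 where Il33 reads 10.04, a likeness by which the 5 genes were chosen.

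The genes beside the family members on the chromosome were read in RefSeq gene order, with the brightest probeset of each. On chromosome 19, Il33 lies between Ranbp6, a nuclear import receptor gene, and Trpd52l3, a tumour protein D52-like gene, and neither of them rose in v-Src cells. Ranbp6 averaged 7.22 in v-Src cells and 6.89 in STAT3-C cells, against 7.80 in control cells, and fell by 0.91 in STAT3-C cells (adjusted p = 0.0158), with a difference of -0.58 in v-Src cells (adjusted p = 0.0545). Uhrf2, a ubiquitin ligase gene after Trpd52l3, fell by 0.85 in v-Src cells (adjusted p = 0.00191) and fell by 1.89 in STAT3-C cells (adjusted p = 2.58e-05). Trpd52l3 and 9930021J03Rik did not pass in either line.

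The receptor cluster on chromosome 1 runs from Il1r2 through Il1r1, Il1rl2, Il1rl1 and Il18r1 to Il18rap, between Map4k4 and Slc9a4. On these probesets Il18rap in both lines and Il1r1 in STAT3-C cells passed within it, in opposite directions, and Map4k4, Slc9a4 and Slc9a2 around it did not pass. Il1rl2, a receptor chain for IL-36 ligands, had a dimmer probeset, 1434903_s_at, that fell by 1.90 in v-Src cells (SE 0.35, adjusted p = 0.00646) and fell by 1.97 in STAT3-C cells (SE 0.34, adjusted p = 0.00324), whereas on its brightest the differences were -0.20 in v-Src cells (adjusted p = 0.118) and -0.17 in STAT3-C cells (adjusted p = 0.378). On chromosome 2, Il1a and Il1b lie next to each other and neither passed, while Sirpa, a myeloid inhibitory receptor gene nearby, rose by 0.66 in v-Src cells (adjusted p = 0.00105) and differed by 0.47 in STAT3-C cells (adjusted p = 0.00623), under the fold. Il1rn closes a row of IL-36 and related ligand genes, Il1f8, Il1f9, Il1f6, Il1f5 and Il1f10, of which only Il1f9 passed, in v-Src cells. In STAT3-C cells no measured neighbour of Il1rn passed.

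**Figure D5:**
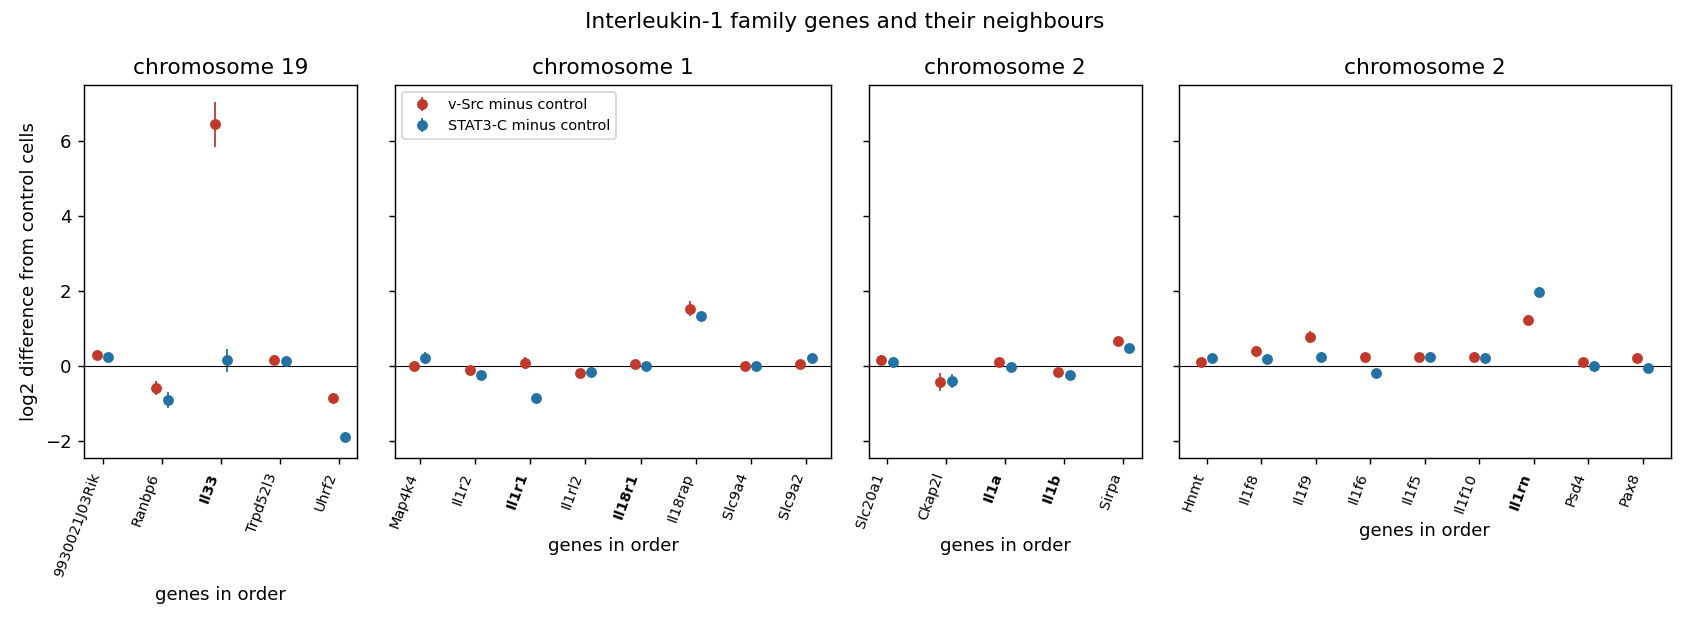
Log2 difference from control cells (vertical axis) with its standard error for measured genes in chromosomal order around the interleukin-1 family (members in bold), for v-Src and STAT3-C cells (n = 3 arrays a line). Il33 at 6.43 in v-Src cells stands alone between Ranbp6 and Trpd52l3, and Il18rap and Il1rn are the highest points of their clusters on chromosomes 1 and 2 in both lines.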

How the data were processed

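Expression was measured with Affymetrix arrays in 3 v-Src, 3 STAT3-C and 3 control arrays, with groups taken from the sample titles. The study's lists differ on which transfected line is which, since a supplementary list appears to head its columns the other way round from the titles and the main text. The titles were followed. The deposited values are RMA expression on the log2 scale, made by the authors from the scanned arrays. Per the methods, RMA was run separately for v-Src with control arrays and for STAT3-C with control arrays, and the run behind the deposited control columns is not stated. If each transfected line comes from its own run, run and line cannot be told apart in their direct comparison. No genome build is named. Precision is limited by the number of arrays, 3 a line.

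Of 45037 probesets (64 control probesets left out), 34945 carried 1 gene symbol, 932 several and 9160 none in the platform annotation. Each pair of lines was fitted on its 6 arrays with limma 3.58.1 in R 4.3.3 (lmFit, eBayes), which was also tested on simulated data. Where a gene had several probesets, the one with the highest mean was used for lists, and every probeset for members. Of 145 list entries, 138 were measured. Genes named are all members, up to 4 genes a list, direction and comparison with the largest difference among those that passed without overlap, the 5 genes most like Il33, the neighbours of members, Stat3 and Src. Myd88, Nlrp3, Pycard, Il1r2, Il6, Ptgs2 and the marker genes were named in addition, after their values were seen. The members and lists were chosen with earlier results of these data known. As alternatives, the 9 arrays were fitted together, normalised again by quantiles or centred on their medians, dim probesets (under the median) were removed, and a fold of 2 or an adjusted p under 0.01 was required. SAM (the study's test, q under 5%, 20 groupings of 6 arrays), trended robust eBayes, omission of single arrays, a block on replicate number, and gene means over probesets were also run. Tables and figures were made with python 3.11.15, pandas 2.3.3 and matplotlib 3.10.9.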

Additional observations from a re-analysis of the deposited data

Results flagged for a closer look

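Several family probesets differed between v-Src and STAT3-C cells, and these differences are descriptions because the set was chosen on that contrast. The difference of v-Src from STAT3-C cells was 6.28 for Il33. It was -0.76, -0.94 and -0.93 on the 3 Il1rn probesets, where both lines had risen over control, 0.94 for Il1r1 on 1448950_at, where only STAT3-C cells had fallen, and 0.81 for Il1rap on 1449585_at, where both had fallen. On 3 other Il1rap probesets each v-Src array lay above the control mean and each STAT3-C array below it, with differences between the lines of 0.67 on 1421843_at, 0.52 on 1421844_at and 0.20 on 1439697_at. Il33 was not tested, and of the other probesets named here all but 1421844_at and 1439697_at met the call criteria between the lines. Nothing is read from this and no p-value is given, since this contrast chose the set.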

How the results depend on the processing

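Of 631 values of member probesets under the alternatives, 9 no longer passed, 2 newly passed and the other 620 kept their side of the threshold or, where none applied, moved by less than the spread between arrays. No threshold applied to Il33 or between v-Src and STAT3-C cells, so calls lost in that contrast are not in these counts. The calls lost there are given below. No called value changed sign, but small uncalled differences did, such as Il33 in STAT3-C cells (0.15, and -0.20 without control array 1) and Il1r1 1448950_at in v-Src cells (0.08, and -0.03 without v-Src array 6). Against control cells, a fold of at least 2 left 2 member probesets (without Il33) that rose and 0 that fell in v-Src cells and 1 that fell in STAT3-C cells, and in the other pathway genes 8 that rose and 11 that fell in v-Src cells and 4 and 13 in STAT3-C cells. Removing probesets under the median level left 0 member probesets that fell in v-Src cells and 1 in STAT3-C cells, since Il1rap 1449585_at is then not tested. Between v-Src and STAT3-C cells, a fold of at least 2 left 0 member probesets upwards and 0 downwards, and an adjusted p under 0.01 left 1 and 1. Leaving out single arrays gave 3 to 5 member probesets that rose and 1 that fell in v-Src cells, 4 and 2 in STAT3-C cells, and 1 to 2 upwards and 1 to 4 downwards between the transfected lines. For other pathway genes it gave 14 to 18 that rose and 17 to 19 that fell in v-Src cells, and 9 to 13 and 19 to 21 in STAT3-C cells, and it kept 4 to 5 of the genes closest to Il33. Spearman correlation kept 2 of those 5; the cause was not tested. With the replicate number as a block in STAT3-C against control, 4 member probesets rose and 2 fell, as before, and 11 pathway genes rose and 20 fell, against 12 and 20. Deviations of same-numbered STAT3-C and control arrays correlated by -0.0926, 0.0645 and 0.0446, against -0.11 to 0.0715 for unlike numbers, so no shared shift was seen. The titles do not say whether the numbers pair the samples, and these values cannot decide it. The v-Src arrays share only the number 1 with control arrays. Median centring moved the median of all probesets to -0.04 in v-Src cells and the share of higher calls to 44.1%, against 51.9% in the values as deposited. Signals near the lower quartile, such as Il1a and Il18r1, allow no statement on small differences.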
